A study of Mus musculus with 18 samples.

Results

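Collagens are the triple-helical proteins of the extracellular matrix, built from 3 alpha chains that wind around each other through a repeated triplet of residues that opens with glycine. Fibrillar collagens (types I, II, III, V, XI, XXIV and XXVII) assemble into the tensile fibrils of connective tissue, and type IV collagen forms the sheet-like network of basement membranes, with types VII, XV and XVIII at the zone around it. The remaining types decorate fibrils (the FACIT group), form beaded filaments (type VI) or short-chain networks (types VIII and X), or span the plasma membrane. In lung tumors, collagen made by stromal fibroblasts and by cells with a mesenchymal program is a main component of the stiffened matrix. The collagen genes were taken as all rows whose symbol is Col, a type number, the letter a and a chain number, which gave 44 of the 55450 genes in the table. Of these, 11 were classed as fibrillar, 9 as basement membrane and 24 as other.

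The RNA came from ED1SQ4, a line of murine lung cancer grown from a tumor of a mouse with transgenic cyclin E, and the study asked which transcripts set polyploid apart from diploid cells after inhibition of cyclin-dependent kinase 2. Cells received vehicle or 0.5 μM CYC065, an inhibitor of cyclin-dependent kinases 2 and 9, for 72 hours. Each treatment was profiled as all cells (unsorted) and as diploid (2N) and polyploid (4N) populations sorted live on a DNA dye, which makes 6 conditions of 1 cell line and 1 species without animals or donors. The 4N gate was set on DNA content alone, so cells that have copied their DNA before division fall in it too. Every condition had 3 columns in the table, which the sample titles call replicates and the library names call parts of 1 library. These 3 differed by no more than the noise of sampling reads (chi-square per degree of freedom 0.991 to 1.02 over genes with whole counts). They were therefore summed and counted as 1 library per condition, and no comparison below has a p-value. Whether they came from separate cultures is not given in the sources used here. The intervals given are exact binomial 95% intervals that cover counting error only. In bulk RNA of this kind, fewer cells with a transcript and less transcript per cell cannot be told apart. Levels are relative to each library, so the amount of RNA per cell was not measured.

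The glycine repeat can be read in the coding sequences. They are shown because fibrillar types I, II, III, V and XI and the type IV chains differ in how long it holds. In the GENCODE M21 transcripts of 43 members with a complete coding sequence, unbroken runs of triplets that start with a glycine codon reached 337 to 344 triplets in types I, II, III, V and XI. In the type IV chains the longest runs had 39 to 66 triplets and the coding sequence held 22 to 27 runs of at least 6. The fibrillar *Col24a1* and *Col27a1* had longest runs of 216 and 217, and *Col15a1*, *Col18a1* and *Col7a1* of 30, 30 and 75. The other class ranged from 23 (*Col26a1*) to 113 (*Col22a1*), so run length did not separate it from the basement membrane class. The first 20 triplets of the longest run are given, with the glycine codon that opens each triplet in capitals, for *Col1a1*, the type I chain with the higher level per kb in vehicle-treated 2N cells, for both type XI chains, which had the largest fibrillar increases after CYC065 in unsorted and 2N cells, and for *Col5a3*, which had the largest fibrillar decreases. The stretches are codons 168 to 227 of *Col1a1*, 527 to 586 of *Col11a1*, 487 to 546 of *Col11a2* and 478 to 537 of *Col5a3*, counted from the start codon.
Col1a1: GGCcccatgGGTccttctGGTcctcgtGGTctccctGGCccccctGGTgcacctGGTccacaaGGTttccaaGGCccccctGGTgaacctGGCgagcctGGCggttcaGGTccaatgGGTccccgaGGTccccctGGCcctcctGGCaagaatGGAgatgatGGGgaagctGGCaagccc
Col11a1: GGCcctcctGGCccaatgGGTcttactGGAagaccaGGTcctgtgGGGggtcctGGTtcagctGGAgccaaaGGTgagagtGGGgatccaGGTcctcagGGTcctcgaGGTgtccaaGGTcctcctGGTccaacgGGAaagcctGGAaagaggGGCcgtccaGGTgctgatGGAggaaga
Col11a2: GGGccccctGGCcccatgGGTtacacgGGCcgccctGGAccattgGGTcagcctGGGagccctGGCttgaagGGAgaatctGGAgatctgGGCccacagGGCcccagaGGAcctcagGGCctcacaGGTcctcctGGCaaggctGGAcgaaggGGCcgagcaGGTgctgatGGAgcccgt
Col5a3: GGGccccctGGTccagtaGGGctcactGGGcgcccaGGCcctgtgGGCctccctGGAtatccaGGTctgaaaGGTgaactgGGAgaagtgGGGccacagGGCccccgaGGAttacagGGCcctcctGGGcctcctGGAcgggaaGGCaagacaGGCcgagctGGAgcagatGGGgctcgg
For *Col4a1* the window (codons 139 to 196) spans a break of 10 codons after the longest run, with 8 triplets on either side, and the capitals again mark the glycine codons that open the triplets.
Col4a1: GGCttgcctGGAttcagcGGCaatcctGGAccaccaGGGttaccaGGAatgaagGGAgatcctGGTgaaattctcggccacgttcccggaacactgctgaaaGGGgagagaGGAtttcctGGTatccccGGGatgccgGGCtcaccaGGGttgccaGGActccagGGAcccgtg

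RefSeq starts (GRCm38.p6) were matched for 35 of the 44 members, with 38 starts. The 250 bases before the start are shown for 4 fibrillar members with a window free of annotated exons, chosen after their values were seen: the pair with the largest increases after CYC065 in unsorted and 2N cells, the 1 with the largest decreases, and the abundant *Col3a1*. The capitals mark matches, on either strand, to the TATA-like word TATAAA, to CCAAT, to the GC-rich word GGGCGG or to the AP-1-like word TGANTCA, and no matches overlapped in these windows. *Col11a1* (chr3:114030290-114030539, plus strand), *Col11a2* (chr17:34038888-34039137, plus strand) and *Col3a1* (chr1:45311288-45311537, plus strand) were higher after CYC065, and *Col5a3* (chr9:20815068-20815317, minus strand) was lower.
Col11a1 upstream: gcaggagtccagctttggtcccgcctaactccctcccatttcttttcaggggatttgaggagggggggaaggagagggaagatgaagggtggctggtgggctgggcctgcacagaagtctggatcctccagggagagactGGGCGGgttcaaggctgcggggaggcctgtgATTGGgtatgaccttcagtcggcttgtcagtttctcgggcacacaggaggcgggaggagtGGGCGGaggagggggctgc
Col11a2 upstream: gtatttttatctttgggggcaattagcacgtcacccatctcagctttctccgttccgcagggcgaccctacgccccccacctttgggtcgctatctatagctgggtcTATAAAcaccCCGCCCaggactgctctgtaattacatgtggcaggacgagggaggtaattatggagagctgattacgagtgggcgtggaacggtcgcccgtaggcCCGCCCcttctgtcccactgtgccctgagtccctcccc
Col3a1 upstream: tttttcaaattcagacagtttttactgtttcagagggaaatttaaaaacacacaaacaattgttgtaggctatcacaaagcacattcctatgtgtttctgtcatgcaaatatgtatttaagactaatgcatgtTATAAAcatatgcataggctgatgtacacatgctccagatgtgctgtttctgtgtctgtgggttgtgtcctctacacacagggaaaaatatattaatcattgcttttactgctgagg
Col5a3 upstream: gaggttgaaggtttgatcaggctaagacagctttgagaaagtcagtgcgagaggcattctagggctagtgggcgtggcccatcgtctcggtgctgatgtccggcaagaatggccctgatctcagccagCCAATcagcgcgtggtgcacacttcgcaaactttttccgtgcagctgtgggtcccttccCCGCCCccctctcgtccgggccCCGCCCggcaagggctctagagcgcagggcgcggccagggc
The window of *Col3a1* was AT-rich (35.2% G or C) with 1 TATAAA, while those of *Col11a1* and *Col5a3* (62.4% and 62.8% G or C) each held 1 CCAAT and 2 GGGCGG matches. *Col11a2* (57.6%) held 1 TATAAA and 2 GGGCGG matches. Over all 32851 upstream windows, 12.4% held TATAAA, 33.85% CCAAT, 32.7% GGGCGG and 6.75% TGANTCA. Of the 38 collagen windows, 5, 13, 22 and 1 did. The matches are a description of these letters.

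Library totals ran from 54750203 to 62795507 counts. *Gm26917*, the row with the most counts in all 6 libraries, took 1.39% to 7.49% of the counts under vehicle and 5.69% to 10.6% after CYC065, and its part in the results below was not tested. Counts were put on a common scale with the TMM method (a trimmed mean of log ratios) and are given as CPM, the count relative to the scaled library size, which compares 1 gene between libraries. Where levels of different genes are ranked or divided by each other, they are given per kb of transcript. Cell identity was read from 4 marker lists. The 7 lung epithelial markers, among them *Epcam*, *Krt18* and *Nkx2-1*, summed to 0.436 to 0.801 CPM under vehicle and 0.799 to 1.2996 CPM after CYC065, and none reached 1 CPM in any library, although the line is labelled as lung cancer. *Nkx2-1* had 0 counts in all 6 libraries. The 6 fibroblast and mesenchymal markers summed to 4328 to 5373 CPM under vehicle and 3796 to 4956 CPM after CYC065, with 5 of 6 at 1 CPM or more throughout. *Vim* was the largest part of that sum in all 6 libraries. The 4 endothelial markers summed to 0.541 to 1.93 CPM under vehicle and 0.916 to 1.27 CPM after CYC065. The 5 immune markers summed to 3.45 to 4.06 CPM under vehicle and 10.9 to 23.8 CPM after CYC065, of which *Cd68* made up nearly all, while *Ptprc*, the pan-leukocyte marker, stayed at 0 to 0.0148 CPM.

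Collagen transcripts were abundant in these cells and took a larger share of every library after CYC065. The 44 genes together held 1.24%, 1.00% and 0.888% of all counts in vehicle-treated unsorted, 2N and 4N cells, and 2.09%, 1.67% and 1.33% after CYC065. On the TMM scale their sum was 1.75-fold, 1.51-fold and 1.36-fold higher after CYC065 in unsorted, 2N and 4N cells. *Col1a1*, *Col1a2* and *Col3a1* made up 67.4% to 74.3% of the collagen counts in each library. The summed CPM of the class of other collagens changed little, at 1.14, 0.97 and 0.91 times vehicle in unsorted, 2N and 4N cells. Per kb of transcript, the fibrillar genes made up 82.5% to 87.1% of the summed collagen level in the 6 libraries.

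**Figure D1:**
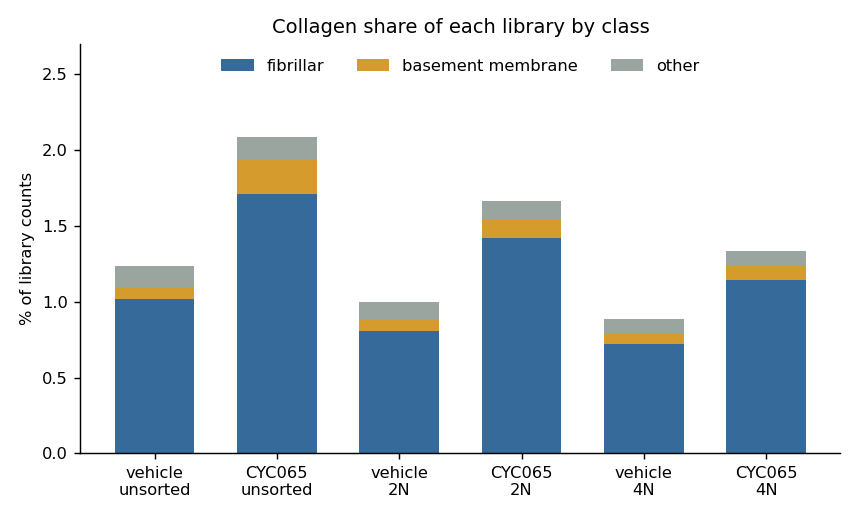
Share of all counts in each of the 6 libraries (y axis, percent) taken by fibrillar (blue), basement membrane (orange) and other (gray) collagen genes, stacked. The stack is taller with CYC065 than with vehicle in each pair, at 2.09% against 1.24% in unsorted cells, and the fibrillar part is the largest throughout.

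Expression was spread unevenly over the family. A level of 1 CPM or more in some library was reached by 25 members, which were 9 of 11 fibrillar, 7 of 9 basement membrane and 9 of 24 other genes. A further 16 members stayed below 30 counts in every library and at or below 0.381 CPM, among them *Col4a3* and *Col4a4* of the kidney type IV network and *Col10a1* of hypertrophic cartilage. *Col25a1* had 0 counts in all libraries, which allows up to 0.0443 to 0.0545 CPM. Ratios were read for genes with at least 30 counts in 1 of the libraries compared, and "past 2-fold" means a log2 ratio beyond 1 in either direction with an interval that leaves out 0.

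**Figure D2:**
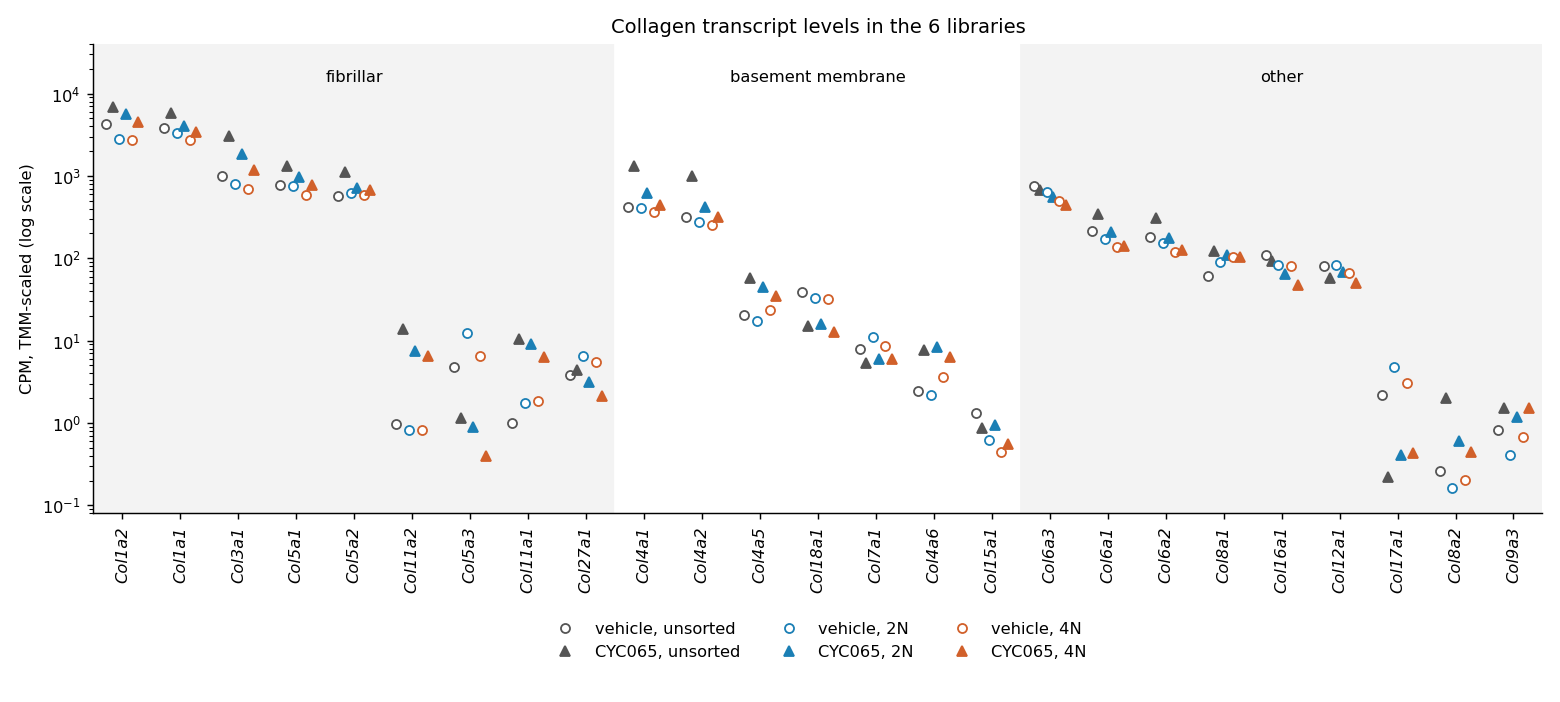
CPM on a log scale (y axis) for the 25 collagen genes at 1 CPM or more in some library, grouped by class and ordered by their highest level. Open circles are vehicle and filled triangles CYC065, in gray for unsorted, blue for 2N and orange for 4N cells. For *Col11a1* and *Col11a2* all triangles lie above all circles, and for *Col5a3* and *Col17a1* all lie below.

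After CYC065 as compared with vehicle, more collagen genes were past 2-fold higher than past 2-fold lower in each population. In 2N and 4N cells the same held for all genes, and in 4N cells the collagen difference rested on members with few counts. The shares of members higher and lower were 37.0% and 14.8% in 2N, 22.2% and 14.8% in 4N and 37.0% and 11.1% in unsorted cells. In 2N cells, 10 of the 27 members with enough counts were past 2-fold higher and 4 past 2-fold lower. Of all 14090 genes tested there, 14.9% were higher and 13.3% lower. The median log2 ratio was 0.37 for the collagen genes and −0.07 for all genes. Among the higher members in 2N cells, *Col2a1*, *Col8a2*, *Col9a3* and *Col14a1* had only 36, 35, 70 and 34 counts in the higher library. The lower members there had 269 to 1872. In 4N cells 6 members were higher and 4 lower of 27, against 14.2% and 11.5% of all genes, and the medians were 0.30 and −0.03. Of those 6, *Col2a1*, *Col20a1* and *Col8a2* had only 64, 42 and 30 counts in the higher library, while the 4 lower members had 179 to 1896. In unsorted cells 10 were higher and 3 lower of 27, against 11.8% and 14.0% of all genes, with medians of 0.77 and −0.07. Past 2-fold higher in all 3 populations were *Col11a1*, *Col11a2* and *Col8a2*, and past 2-fold lower in all 3 were *Col5a3*, *Col17a1* and *Col18a1*. That is 3 and 3 of 26 members tested in all 3, where 6.42% and 7.02% of all genes met the same rule. The direction was mixed within each class. Scaling by library size alone moved the median of all genes up by 0.14 on the log2 scale in 2N and in 4N cells and ended the calls of *Col18a1* and *Col27a1* in 2N cells.

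**Figure D3:**
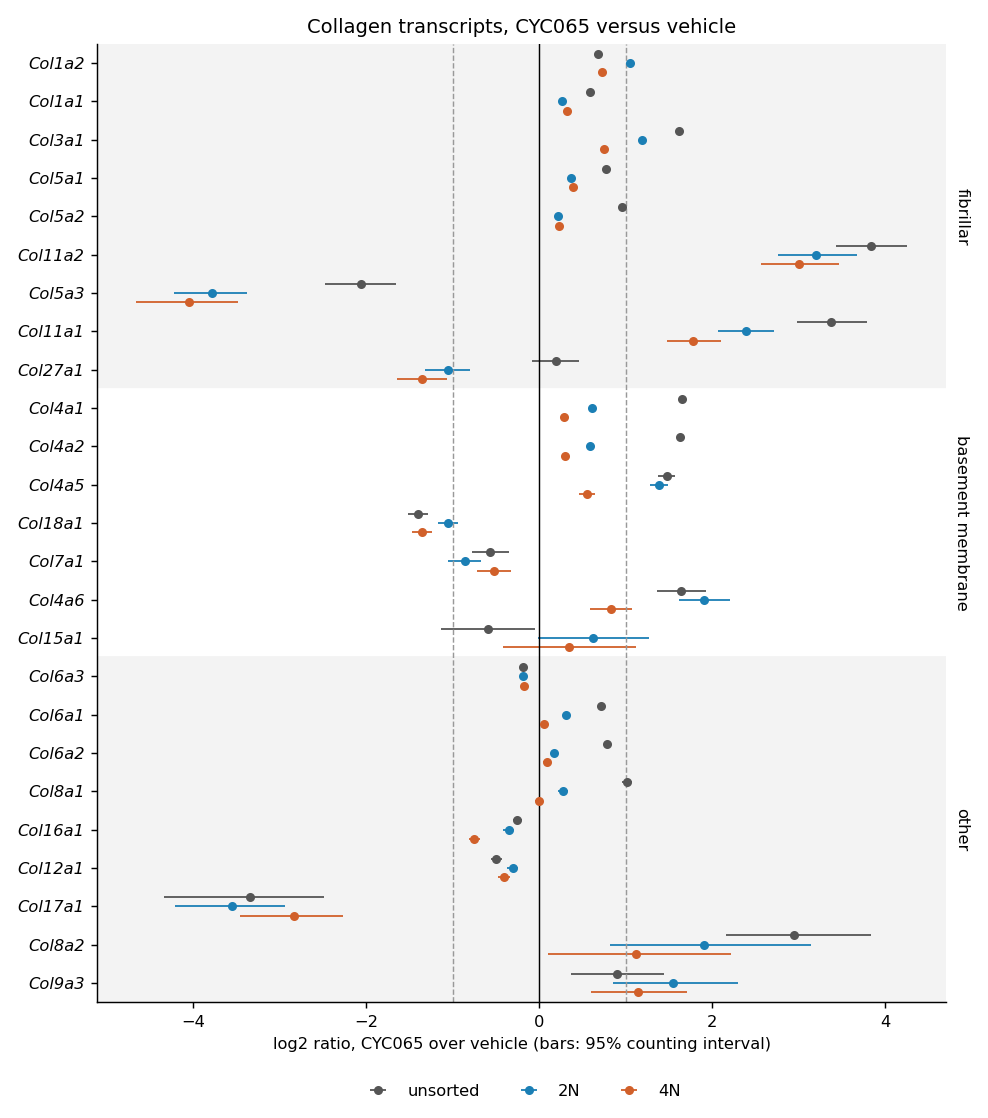
Log2 ratio of CYC065 over vehicle (x axis) with 95% counting intervals for the 25 collagen genes at 1 CPM or more, in unsorted (gray), 2N (blue) and 4N (orange) cells, where the pair had at least 30 counts. Dashed lines mark 2-fold. *Col11a2* lies farthest right, at 3.83 in unsorted cells, and *Col5a3* farthest left, at −4.04 in 4N cells.

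The abundant fibril-forming chains *Col1a1*, *Col1a2*, *Col3a1*, *Col5a1* and *Col5a2* were higher after CYC065 in all 3 populations, by 1.16-fold to 3.06-fold. *Col1a1* (chr11:94936224-94953042, mm10, plus strand), the major type I chain, stood at 3799, 3364 and 2742 CPM in vehicle-treated unsorted, 2N and 4N cells and at 5731, 4041 and 3413 CPM after CYC065. *Col1a2* (chr6:4504814-4541544, plus strand), its partner in the type I trimer, stood at 4319, 2773 and 2760 CPM under vehicle and 6902, 5720 and 4557 CPM after CYC065. For both genes each CYC065 library lay above its own control, but the vehicle-treated unsorted library overlapped with the treated 4N library for *Col1a1*. The log2 ratio of *Col1a2* in 2N cells was 1.04 (1.04 to 1.05), the only type I value past 2-fold, whereas that of *Col1a1* was 0.26 (0.26 to 0.27). *Col3a1* (chr1:45311538-45349706, plus strand), the chain of the reticular fibers, stood at 1010, 804 and 701 CPM under vehicle and at 3086, 1828 and 1175 CPM after CYC065. Its log2 ratio was 1.61 (1.60 to 1.62) in unsorted, 1.19 (1.17 to 1.20) in 2N and 0.75 (0.73 to 0.76) in 4N cells, so that the sorted 4N cells stayed short of 2-fold. *Col3a1* was the member whose count was fractional, and it shares 141 bases with the annotated microRNA gene *Gm47302* on its strand.

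Type V collagen sits inside type I fibrils and limits their width. *Col5a1* stood at 781, 753 and 590 CPM under vehicle and 1332, 969 and 777 CPM after CYC065. *Col5a2*, which lies next to *Col3a1* on chromosome 1, stood at 573, 620 and 583 CPM under vehicle and 1116, 719 and 681 CPM after CYC065. These chains were 1.29-fold and 1.16-fold higher in 2N cells, 1.32-fold and 1.17-fold higher in 4N cells and 1.70-fold and 1.95-fold higher in unsorted cells. *Col5a3* (chr9:20770050-20815067, minus strand), the third type V chain, was lower, going from 4.83, 12.2 and 6.57 CPM under vehicle to 1.16, 0.889 and 0.399 CPM after CYC065. All treated values of *Col5a3* lay below all vehicle values. The share of all genes whose treated and vehicle libraries separate in this way is not given here, so such separations are descriptions only. Not every separation is remarked on. Among others, *Col3a1*, *Col5a2*, *Col4a1* and *Col9a3* had all treated values above all vehicle values. The decrease of *Col5a3* was 13.8-fold in 2N (log2 −3.78, −4.22 to −3.38), 16.5-fold in 4N (−4.04, −4.66 to −3.48) and 4.16-fold in unsorted cells (−2.06, −2.47 to −1.66).

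The type XI chains, which nucleate cartilage fibrils and can trimerize with type V chains, had the largest increases of the fibrillar class in unsorted and 2N cells. *Col11a1* (chr3:114030540-114220718, plus strand) stood at 1.01, 1.73 and 1.84 CPM in vehicle-treated unsorted, 2N and 4N cells and at 10.4, 9.03 and 6.34 CPM after CYC065. *Col11a2* (chr17:34039437-34066685, plus strand) stood at 0.959, 0.819 and 0.819 CPM under vehicle and at 13.7, 7.51 and 6.55 CPM after CYC065. The treated and the vehicle libraries did not overlap for either gene. The log2 ratios of *Col11a1* were 3.37 (2.98 to 3.78), 2.39 (2.07 to 2.71) and 1.78 (1.47 to 2.10) in unsorted, 2N and 4N cells. Those of *Col11a2* were 3.83 (3.44 to 4.25), 3.20 (2.76 to 3.67) and 3.00 (2.57 to 3.46). Even so, these transcripts stayed scarce beside type I. *Col27a1*, a fibrillar chain of cartilage, stood at 3.80, 6.59 and 5.48 CPM under vehicle and 4.34, 3.16 and 2.14 CPM after CYC065. It was past 2-fold lower in both sorted populations, with log2 ratios of −1.06 (−1.32 to −0.80) in 2N and −1.35 (−1.65 to −1.07) in 4N cells and 0.19 (−0.08 to 0.46) in unsorted cells. *Col2a1*, the cartilage chain, had no more than 64 counts and is named, outside the naming rule, because it was past 2-fold higher in 2N (log2 1.53, 0.55 to 2.61) and 4N cells (1.89, 1.06 to 2.80). In unsorted cells its log2 ratio was 0.62 (−0.23 to 1.49), short of 2-fold and with an interval that includes 0.

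In the basement membrane class, the type IV network chains were higher after CYC065 while the zone collagens XVIII and VII were lower. *Col4a1* (chr8:11198423-11312826, minus strand) stood at 417, 405 and 366 CPM in vehicle-treated unsorted, 2N and 4N cells and at 1309, 616 and 449 CPM after CYC065. *Col4a2* (chr8:11312805-11449287, plus strand), which starts head to head with it and overlaps it by 22 bases, stood at 320, 279 and 255 CPM under vehicle and 990, 420 and 315 CPM after CYC065. These chains form the ubiquitous type IV trimer and moved together. Their log2 ratios were 1.65 and 1.63 in unsorted, 0.61 and 0.59 in 2N and 0.29 and 0.30 in 4N cells, so that 2-fold was passed in unsorted cells and not in 2N or 4N cells. The level of the treated unsorted library lay above that of both sorted treated libraries. *Col4a5* (chrX:141475385-141689234, plus strand) stood at 20.6, 17.4 and 23.7 CPM under vehicle and 57.2, 45.4 and 34.7 CPM after CYC065. *Col4a6* (chrX:141165403-141474076, minus strand), its head-to-head neighbor, stood at 2.46, 2.21 and 3.58 CPM under vehicle and 7.67, 8.26 and 6.35 CPM after CYC065. For this pair all treated values lay above all vehicle values. The log2 ratios in unsorted, 2N and 4N cells were 1.48, 1.39 and 0.55 for *Col4a5* and 1.64, 1.90 and 0.83 for *Col4a6*.

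*Col18a1* (chr10:77052178-77166548, minus strand), whose protein carries the endostatin fragment, stood at 39.4, 33.3 and 32.3 CPM under vehicle and at 14.97, 16.1 and 12.6 CPM after CYC065. It was lower by 2.63-fold, 2.07-fold and 2.56-fold in unsorted, 2N and 4N cells. *Col7a1*, the anchoring fibril collagen, stood at 7.92, 10.95 and 8.53 CPM under vehicle and 5.36, 6.04 and 5.94 CPM after CYC065. All treated values of both genes lay below all vehicle values, although *Col7a1* did not reach 2-fold (log2 −0.56, −0.86 and −0.52). *Col15a1* stood at 1.31, 0.623 and 0.444 CPM under vehicle and at 0.872, 0.958 and 0.561 CPM after CYC065, with overlapping groups.

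Among the other collagens the beaded-filament chains of type VI parted. *Col6a1* stood at 213, 169 and 137 CPM under vehicle and 348, 210 and 143 CPM after CYC065. *Col6a2* stood at 180, 154 and 120 CPM under vehicle and 311, 174 and 128 CPM after CYC065. *Col6a3*, the long chain that joins them in the type VI trimer, stood at 762, 632 and 502 CPM under vehicle and 671, 554 and 444 CPM after CYC065. In unsorted cells *Col6a1* and *Col6a2* were 1.64-fold and 1.73-fold higher and *Col6a3* was 1.14-fold lower. In 4N cells the first pair were 1.04-fold and 1.07-fold higher and *Col6a3* was 1.13-fold lower, and none of the 3 passed 2-fold.

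The short-chain collagens of type VIII, found in vessel wall and Descemet's membrane, were past 2-fold higher in unsorted cells. *Col8a1* stood at 60.7, 89.7 and 103 CPM under vehicle and 122, 109 and 102 CPM after CYC065. Its log2 ratio was 1.01 (0.95 to 1.07) in unsorted, 0.28 (0.22 to 0.33) in 2N and −0.003 (−0.05 to 0.05) in 4N cells. *Col8a2* stood at 0.262, 0.1602 and 0.205 CPM under vehicle and 2.02, 0.5985 and 0.443 CPM after CYC065. All treated values of *Col8a2* lay above all vehicle values, with log2 ratios of 2.95 (2.16 to 3.83), 1.90 (0.82 to 3.14) and 1.11 (0.11 to 2.22). In the sorted pairs its higher library had only 35 and 30 counts, and both calls were lost without replicate column 1. The *Col8a1* call was lost without column 2 and with scaling by library size alone.

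The FACIT collagens bind fibril surfaces. *Col12a1* stood at 81.2, 83.5 and 65.7 CPM under vehicle and 57.6, 67.5 and 49.7 CPM after CYC065. *Col16a1* stood at 110, 83.4 and 80.5 CPM under vehicle and 92.5, 65.3 and 47.9 CPM after CYC065. Both were lower in every population, by 1.24-fold to 1.41-fold and by 1.19-fold to 1.68-fold, short of 2-fold. *Col9a3*, which pairs with type II fibrils, stood at 0.820, 0.409 and 0.682 CPM under vehicle and 1.53, 1.20 and 1.51 CPM after CYC065, and was past 2-fold in 2N (log2 1.55, 0.85 to 2.30) and 4N cells (1.14, 0.60 to 1.71), the second of which was lost without replicate column 2. *Col14a1* and *Col20a1* stayed at or below 34 and 42 counts and are named, outside the naming rule, because *Col14a1* was past 2-fold higher in 2N (log2 2.44) and unsorted cells (1.64) and *Col20a1* in 4N cells (2.86). In the populations left out here, their counts were too few for a ratio to be read. *Col17a1* (chr19:47646344-47692094, minus strand), the hemidesmosome collagen of epithelial cells, stood at 2.22, 4.79 and 3.05 CPM under vehicle and 0.218, 0.410 and 0.428 CPM after CYC065. Its treated and vehicle libraries did not overlap, and the decrease was 10.2-fold in unsorted (log2 −3.35, −4.34 to −2.49), 11.7-fold in 2N (−3.54, −4.21 to −2.94) and 7.13-fold in 4N cells (−2.83, −3.45 to −2.26).

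Across the whole family, the treated unsorted library lay above both treated sorted libraries for 20 of the 28 members with at least 30 counts in some library, where 38.1% of all such genes did. Under vehicle the same held for 18 of 28, where 41.4% of all genes did. Among the class sums the difference was widest for basement membrane transcripts. Their summed CPM was 2.95-fold higher after CYC065 in unsorted cells and 1.49-fold and 1.19-fold in 2N and 4N cells. Most of that sum was *Col4a1* and *Col4a2* (1309 and 990 of 2385 CPM in treated unsorted cells). The log2 ratio of *Col4a6* was 1.64 in unsorted and 1.90 in 2N cells. *Col18a1*, *Col7a1* and *Col15a1* were lower in unsorted cells (−1.40, −0.56 and −0.59). The fibrillar sum was 1.73-fold, 1.60-fold and 1.44-fold higher. Whether the unsorted cells had been stained or passed through the sorter is not given in the sources used here.

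Fewer collagen genes were past 2-fold between 4N and 2N cells than between CYC065 and vehicle, as held for all genes. The medians were not all smaller in size. That of 4N over 2N cells after CYC065 was −0.39, beside 0.37 and 0.30 for CYC065 over vehicle in 2N and 4N cells. Under vehicle, 0 of the 24 members with enough counts were past 2-fold in either direction, where 1.03% of all genes were higher and 1.69% lower. The median log2 ratio of 4N over 2N was −0.17 against 0.01 for all genes, and the intervals of 14 members lay below 0 and those of 3 above 0, where 25.5% and 28.2% of all genes did. *Col1a1* (log2 −0.29), *Col5a1* (−0.35), *Col6a2* (−0.37), *Col5a3* (−0.90) and *Col17a1* (−0.65) were among those lower in 4N cells. *Col4a5* (0.45, 0.33 to 0.57), *Col4a6* (0.70, 0.37 to 1.03) and *Col8a1* (0.19, 0.14 to 0.25) were the 3 higher. *Col1a2* was level at −0.01 (−0.02 to 0.00).

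After CYC065, most collagen transcripts had a lower CPM in 4N than in 2N cells. *Col5a3* was the 1 member of 27 past 2-fold, at log2 −1.16 (−1.88 to −0.46) and with 52 counts in the higher library (the call was lost without replicate column 1, when *Col14a1* was gained), where 1.60% of all genes were past 2-fold higher and 2.05% lower. The ratio was below 0 for 24 of 27 members, where 46.3% of all genes were. The interval lay below 0 for 22 and above 0 for 1, where 24.9% and 30.7% of all genes did, and the median was −0.39 against 0.02 for all genes. *Col3a1* (log2 −0.64), *Col6a1* (−0.56), *Col27a1* (−0.56), *Col11a1* (−0.51), *Col4a1* (−0.46) and *Col4a2* (−0.42) were lower in 4N cells, and *Col5a2* (−0.08) and *Col8a1* (−0.09) nearly level. The 7 tested basement membrane members were all below 0. The summed collagen CPM of 4N over 2N cells was 0.883 under vehicle and 0.793 after CYC065. Both ratios share their libraries with the CYC065 comparisons above.

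**Figure D4:**
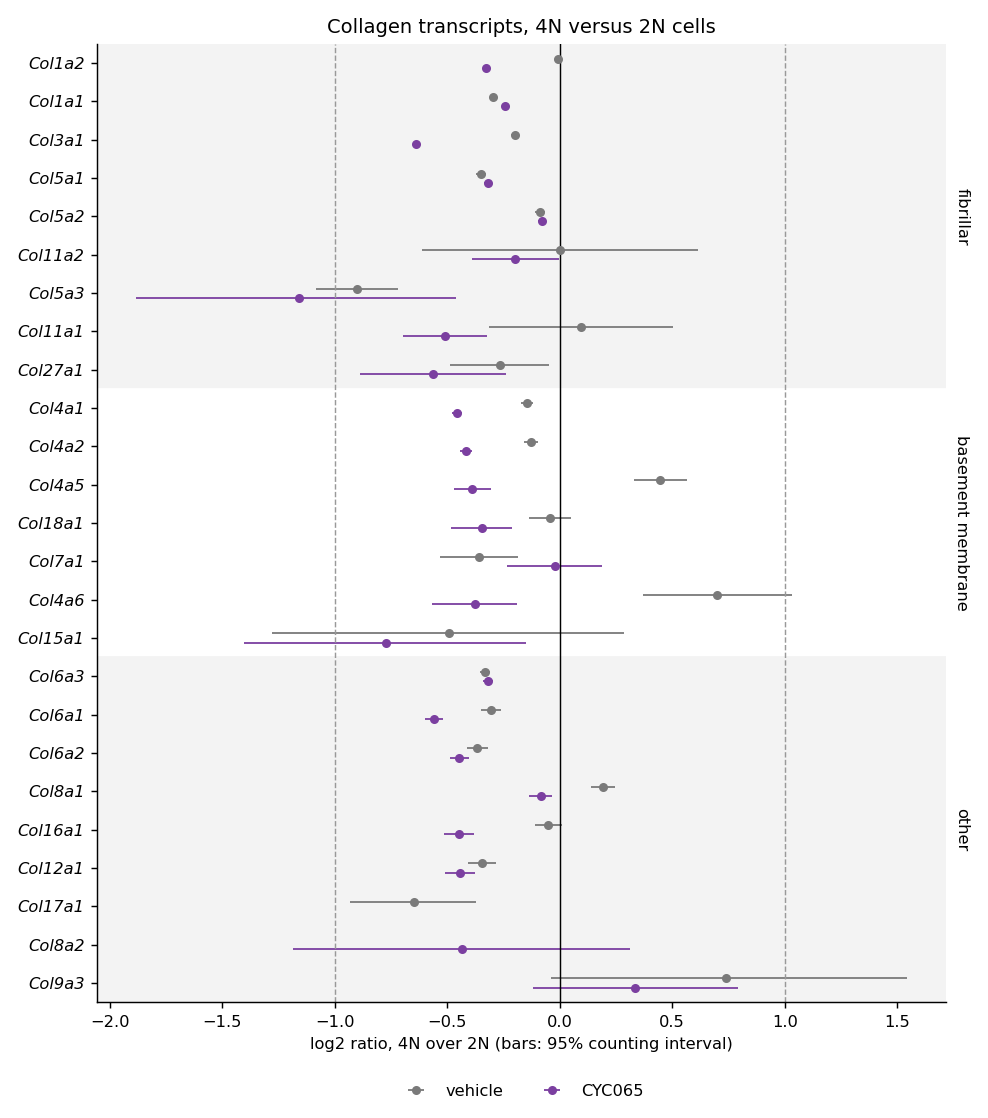
Log2 ratio of 4N over 2N cells (x axis) with 95% counting intervals under vehicle (gray) and after CYC065 (purple), for the 25 collagen genes at 1 CPM or more, where the pair had at least 30 counts. Dashed lines mark 2-fold. Most purple points lie left of 0, and *Col4a5* and *Col4a6* lie right of 0 under vehicle and left of it after CYC065.

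The CYC065 effect itself was set against ploidy as the log2 ratio in 4N cells minus that in 2N cells. *Col4a6* was the 1 of 28 members past 2-fold, at −1.07 (−1.45 to −0.70), where 2.78% of all genes had a larger and 2.50% a smaller ratio in 4N cells. Its neighbor *Col4a5* had −0.84 (−0.98 to −0.69). The intervals of 13 members lay below 0 and those of 3 above 0, where 22.5% and 27.4% of all genes did, and the median difference was −0.27 against 0.02 for all genes. *Col3a1* (−0.44), *Col1a2* (−0.32), *Col4a1* (−0.31) and *Col11a1* (−0.60) had smaller increases in 4N cells. *Col1a1* (0.05, 0.04 to 0.06), *Col5a1* (0.03, 0.00 to 0.06), *Col5a2* (0.01, −0.02 to 0.04) and *Col6a3* (0.01, −0.02 to 0.04) had nearly the same ratio in both populations. Without replicate column 2 the *Col4a6* call was lost, and without column 1 *Col17a1* was gained.

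Partner chains kept or lost their proportions in different ways. Per kb of transcript, the ratio of *Col4a1* to *Col4a2* was 1.27 to 1.43 over all 6 libraries and that of *Col6a1* to *Col6a2* 1.06 to 1.16. The ratio of *Col1a1* to *Col1a2* was 1.09 (1.09 to 1.101) in vehicle-treated 2N cells and 0.637 (0.634 to 0.640) after CYC065, and 0.896 and 0.676 in 4N cells. In unsorted cells it was 0.793 and 0.749. The ratio of *Col3a1* to *Col1a1* was 0.255 to 0.283 under vehicle and 0.574, 0.482 and 0.367 in CYC065-treated unsorted, 2N and 4N cells. *Col6a3* to *Col6a2* was 1.60 to 1.66 under vehicle and 0.844, 1.25 and 1.36 after CYC065. *Col11a1* to *Col11a2* was 0.742 (0.504 to 1.09), 1.48 (1.03 to 2.16) and 1.58 (1.12 to 2.27) under vehicle and 0.538, 0.846 and 0.681 after CYC065. The order of levels per kb in vehicle-treated 2N cells was *Col1a1* (567 CPM per kb), *Col1a2* (519), *Col3a1* (145), *Col5a2* (93.5), *Col5a1* (89.5), *Col6a3* (62.6), *Col4a1* (61.2), *Col4a2* (43.3), *Col6a1* (41.3) and *Col6a2* (39.0), of which only the neighbors *Col6a3* and *Col4a1* had overlapping counting intervals. After CYC065 the 2N order opened with *Col1a2* (1070), *Col1a1* (681) and *Col3a1* (329).

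**Figure D5:**
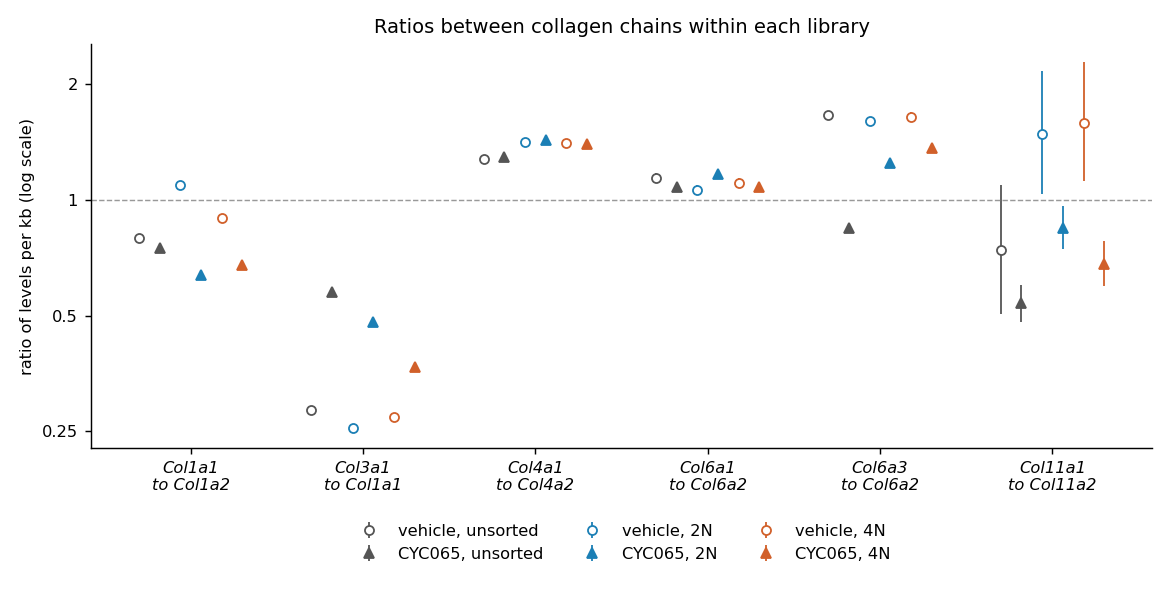
Ratio of the levels per kb of 6 pairs of collagen chains (y axis, log scale) in each library, with 95% counting intervals. Open circles are vehicle and filled triangles CYC065, in gray for unsorted, blue for 2N and orange for 4N cells. The *Col4a1* to *Col4a2* and *Col6a1* to *Col6a2* ratios stay within 1.06 to 1.43, while *Col3a1* to *Col1a1* is higher and *Col6a3* to *Col6a2* lower with CYC065 in every pair.

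Collagen chains depend on other proteins to be hydroxylated, folded, trimmed, cross-linked and degraded, and these genes were counted in lists. The lists here and below were chosen with earlier results of these data known, so an excess over all genes is a description only. Each count of a list is to be read against the shares of all genes past 2-fold higher and lower after CYC065, which were 14.9% and 13.3% in 2N, 14.2% and 11.5% in 4N and 11.8% and 14.0% in unsorted cells. Of 39 processing and cross-linking genes, 36 were tested, of which 8 were higher and 5 lower in 2N cells, 5 and 5 in 4N cells and 9 and 2 in unsorted cells after CYC065. As shares of the 36, these were 22.2% and 13.9% in 2N, 13.9% and 13.9% in 4N and 25% and 5.56% in unsorted cells, and the medians were 0.18, 0.07 and 0.36. *Loxl1*, which cross-links lysines, stood at 19.6, 8.94 and 7.39 CPM under vehicle and 61.3, 71.1 and 38.2 CPM after CYC065. *Adamts2*, the procollagen N-proteinase, stood at 48.2, 51.3 and 45.1 CPM under vehicle and 279, 163 and 120 CPM after CYC065. *Plod2*, the lysyl hydroxylase of the chain ends, went from 111, 120 and 126 CPM to 367, 266 and 242 CPM. *Tll1*, a tolloid-like proteinase, had log2 ratios of 1.90, 1.181 and 0.53 in unsorted, 2N and 4N cells. Lower after CYC065 were *Loxl4*, a relative of *Loxl1* (log2 −2.06, −2.02 and −2.43), and *Pcolce2*, an enhancer of the C-proteinase (−2.72, −1.21 and −1.08).

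Genes on the collagen degradation list were higher more often than lower. The list holds proteinases and also inhibitors of them, such as *Reck* and *Timp1*, and the counts do not separate these. Of 23 genes, 17, 17 and 15 were tested in 2N, 4N and unsorted cells. In 2N cells 11 were higher and 1 lower, in 4N cells 8 and 2 and in unsorted cells 9 and 1, with medians of 1.16, 0.88 and 1.37. The higher genes were 64.7%, 47.1% and 60.0% of those tested, against 14.9%, 14.2% and 11.8% of all genes. *Mmp2*, a gelatinase, stood at 220, 212 and 169 CPM under vehicle and 1334, 706 and 600 CPM after CYC065. *Mmp13*, a collagenase, stood at 0.28, 0.25 and 0.31 CPM and then at 1.73, 1.61 and 1.34 CPM. *Mmp11* (log2 2.13, 1.80 and 1.49 in unsorted, 2N and 4N cells) and the inhibitor *Reck* (2.95, 2.81 and 2.01) were higher as well. *Timp1*, a secreted inhibitor of these proteinases, fell from 134, 306 and 276 CPM to 30.3, 42.7 and 30.2 CPM. Its relative *Timp3*, with no more than 1.14 CPM, had log2 ratios of 3.57 in 2N, 1.60 in 4N and 0.06 in unsorted cells.

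Of 11 collagen receptors, 7 were tested, and 1 was higher and 1 lower in each population after CYC065, with medians of −0.06, −0.08 and 0.26 in 2N, 4N and unsorted cells. The collagen-binding integrin chain *Itga11* was higher in sorted cells (log2 1.101 in 2N and 1.14 in 4N) and *Itga10* in unsorted cells (1.68). *Adgrg6*, a receptor for type IV collagen, was lower in 2N cells (−1.08), and *Adgrg1*, a receptor for type III collagen, in 4N (−1.14) and unsorted cells (−1.78). *Itga11* was the receptor past 2-fold lower in 4N than in 2N cells under vehicle (−1.02).

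Of 20 collagen-binding matrix genes, 19 were tested. In 2N cells 7 were higher and 1 lower, in 4N cells 4 and 3 and in unsorted cells 11 and 0, with medians of 0.51, 0.30 and 1.38. The higher genes were 36.8%, 21.1% and 57.9% of those tested and the lower ones 5.26%, 15.8% and 0%. *Thbs2*, a thrombospondin, stood at 156, 77.2 and 69.7 CPM under vehicle and 1215, 702 and 614 CPM after CYC065. *Fbln1*, a fibulin of the basement membrane, went from 129, 137 and 117 CPM to 1054, 555 and 432 CPM, and *Thbs1* from 273, 689 and 890 CPM to 1929, 2073 and 1700 CPM. *Nid2*, which links type IV collagen to laminin, had log2 ratios of 3.36, 2.60 and 1.77 in unsorted, 2N and 4N cells. *Postn*, which binds type I collagen, had 4.30, 0.59 and 0.30, and *Lum*, a fibril-binding proteoglycan, 2.10, 0.17 and −0.33. Both of the latter were past 2-fold in unsorted cells and short of it in 2N and 4N cells. Between 4N and 2N cells after CYC065, 19 of 19 matrix genes had an interval below 0, as did 24.9% of all genes, and 2 were past 2-fold lower, against 2.05% of all genes, which were *Postn* (−1.27) and *Lum* (−1.33). Of 16 TGF-beta pathway genes, which include inducers of collagen transcription, 3 were higher and 2 lower in 2N, 2 and 2 in 4N and 4 and 4 in unsorted cells, with medians of 0.002, −0.17 and 0.46. That was 18.8% and 12.5% in 2N, 12.5% and 12.5% in 4N and 25% and 25% in unsorted cells, near the shares of all genes in 2N and 4N cells. The 6 mesenchymal markers had medians of 1.15, 0.68 and 1.75, with 4, 3 and 5 higher and 0 lower. Their summed CPM went the other way in sorted cells, from 5373 to 4275 in 2N and from 5361 to 3796 in 4N cells, and from 4328 to 4956 in unsorted cells, with *Vim* the largest part of the sum in all 6 libraries. Their part in the collagen results was not tested.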

How the data were processed

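RNA-Seq of ED1SQ4 cells was analyzed from the gene table that the authors deposited. The libraries were stranded and depleted of ribosomal RNA, Cutadapt 1.18 trimmed the reads, STAR 2.7.0f placed them on mm10, and RSEM counted the genes of GENCODE M21, so the deposited values are RSEM expected counts per gene, not normalized. Of all genes, 9.66% had fractional values, and these were rounded to whole counts after summing. The 3 columns of each condition (18246493 to 20933929 counts each) were summed to 1 library, since their totals differed by 0.0154% to 0.0681% and genes with whole counts by no more than sampling noise. The number of columns left unused was 0. Precision is that of counting in 54750203 to 62795507 counts per library and leaves out the spread between cultures.

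Counts were scaled over the 6 libraries by TMM (edgeR 4.0.16, R 4.3.3; factors 0.941 to 1.08). Log2 ratios carry exact conditional binomial (Clopper-Pearson) 95% intervals, and a ratio was past 2-fold where it lay beyond 1 in either direction, its interval excluded 0 and 1 of the libraries held at least 30 counts. A count of 0 was read with a floor of 3 counts per library. The difference of the CYC065 effect used 0.5 added to each count and a delta-method interval. Levels per kb used the transcript with the longest coding sequence. Calculations used Python 3.11.15, pandas 2.3.3, NumPy 2.4.6, SciPy 1.17.1 and matplotlib 3.10.9, and were tested on simulated data. Named were members with at least 100 counts in some library and, from each of 4 lists of related genes, up to 6 genes at 1 CPM or more and past 2-fold in a comparison, by size of the ratio. The members and lists were chosen with earlier results of these data known. Alternatives were other scalings, filters and thresholds, edgeR and DESeq2 1.42.0 on the columns, assumed biological coefficients of variation and leaving out each column.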

Additional observations from a re-analysis of the deposited data

Results flagged for a closer look

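For *Col4a6*, a type IV collagen chain, the log2 ratio of CYC065 over vehicle was smaller by 1.07 in the 4N than in the 2N libraries (difference −1.07, 95% counting interval −1.45 to −0.70). It drew attention because that interval excludes 0 and the difference passes 2-fold. The levels were 2.21 and 8.26 CPM in vehicle-treated and CYC065-treated 2N cells and 3.58 and 6.35 CPM in 4N cells. Without replicate column 2 the difference was no longer past 2-fold. The columns of each condition were counted as 1 library, and the interval leaves out variation among cultures.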

How the results depend on the processing

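Each condition was counted as 1 library and variation among cultures is not in any interval, and the 16 members under 30 counts are below what this depth resolves. The members past 2-fold after CYC065 numbered 14 in 2N, 10 in 4N and 13 in unsorted cells. Requiring the interval to lie wholly beyond 2-fold left 9 in 2N cells. An assumed biological coefficient of variation of 0.4 left 3 in 2N (*Col11a2*, *Col5a3* and *Col17a1*), 2 in 4N (*Col11a2* and *Col5a3*) and 3 in unsorted cells (*Col11a1*, *Col11a2* and *Col17a1*), which by construction widens the error. Between 4N and 2N cells after CYC065, the 1 member became 0 with at least 100 counts, with the interval wholly beyond 2-fold and with a coefficient of 0.2 or 0.4. For the difference of the CYC065 effect, the 1 member became 0 with the interval wholly beyond 2-fold and with 0.2 or 0.4. For genes with whole counts the columns differ by no more than sampling noise, so leaving out a column, or testing on the columns, does not measure variation among cultures. Leaving out a column gave 13 to 14, 9 to 10 and 12 to 14 members after CYC065 in 2N, 4N and unsorted cells. It gave 0 to 1 between 4N and 2N cells under vehicle (*Col9a3* without column 3) and 0 to 2 for the difference. With the replicate block, edgeR called 12, 10, 14, 0, 1 and 1 members in the 2N, 4N, unsorted, 4N over 2N under vehicle, 4N over 2N after CYC065 and difference comparisons, the same numbers as without it. Column numbers did not pair the conditions (correlations of same-numbered deviations −0.22 to 0.16). *Col18a1* and *Col27a1* in 2N cells lost their calls with library size alone, edgeR, DESeq2 or a coefficient of 0.2. *Col8a1* in unsorted cells lost its call with library size alone, and *Col5a2* there gained one with DESeq2 size factors. *Col8a2* lost its calls in 2N and 4N cells without column 1, *Col9a3* its call in 4N cells without column 2, *Col27a1* its call in 2N cells without column 3 and *Col8a1* its call in unsorted cells without column 2. Among all genes, the numbers past 2-fold after CYC065 were 3975, 3643 and 3621 in 2N, 4N and unsorted cells and 319, 266 and 245 with a coefficient of 0.4. They were 364 and 517 between 4N and 2N cells under vehicle and after CYC065, with a range of 4 to 842 and 11 to 1171 over the alternatives, and 764 for the difference, with a range of 0 to 1147.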
